A study of Mus musculus with 16 samples.

Results

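Of 16 hippocampus libraries, 4 carried high levels of genes that mark the midbrain and thalamus, and the genes that separate them from the other 12 libraries are described here. The 4 were chosen by their counts of such marker genes: wild-type replicate 4, 5xFAD replicate 2, 5xFAD replicate 4 and 5xFAD-Dp16 replicate 3. The choice itself makes these libraries differ, so every difference between the 4 and the 12 is a description and carries no test. Polyadenylated RNA of mouse hippocampus was sequenced at 5 months of age in 4 genotypes with 4 libraries each. Wild-type, Dp16 (a duplicated segment of chromosome 16, a mouse model of Down syndrome), 5xFAD (human transgenes with familial Alzheimer disease mutations, driven by the Thy1 promoter) and 5xFAD-Dp16 (both) were compared. Wild-type, Dp16 and 5xFAD had 2 males and 2 females each, and all 4 5xFAD-Dp16 mice were male. Of the 4 chosen libraries, wild-type replicate 4 and 5xFAD replicate 2 were female, and 5xFAD replicate 4 and 5xFAD-Dp16 replicate 3 were male. No Dp16 library belongs to the set. Whether every library comes from its own mouse is not spelled out in the labels, so the spread behind each p-value is that between libraries and may be technical.

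As background, the hippocampus is a part of the telencephalon, the front division of the embryonic brain, and its principal neurons form the CA fields and the dentate gyrus. The thalamus, habenula and pretectum lie directly beneath it, the midbrain behind these, and the hypothalamus further down. Neurons keep for life many of the transcription factors that set up their region, so factors of the Emx and Neurod families mark telencephalic neurons, whereas Irx, Gata, Lhx1 and Barhl factors mark neurons outside it. Excitatory neurons of the hippocampus load glutamate with the transporter Slc17a7 (VGLUT1), and those of the thalamus and brainstem largely with Slc17a6 (VGLUT2). In bulk RNA, fewer cells of a type and less RNA per cell cannot be told apart.

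Total counts were 17.2 to 20.3 M in the 4 libraries and 15.8 to 25.0 M in the other 12. The number of genes with at least 10 counts was 16016 to 16507 against 15242 to 16543, and the mitochondrial share of counts was 5.94 to 6.84% against 4.78 to 6.89%. The scaling factors of the trimmed mean of M values (TMM) lay at 1.05 to 1.09 in the 4 and at 0.929 to 1.03 in the 12, without overlap. In a principal component analysis of the 1000 most variable genes the first component (24.4% of the variance) did not separate the set, and the second (22.3%) did.

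A gene is called higher or lower here when its fitted difference is at least 2-fold with genotype and sex as further terms, its library-size-scaled counts (CPM, scaled by TMM) do not overlap between the 4 libraries and the 12, and the higher group averages at least 1 CPM. Of 16684 genes tested, 174 were higher (1.04%) and 55 lower (0.33%). Among them 13 and 9 had clone names. The set was defined on this same contrast, and nothing is read from these shares. The median difference over all tested genes was log2 0.03, with a positive sign in 8857. Just inside the 2-fold limit were Kcng4 (log2 1.01) and Egr3 (log2 -1.001), and just outside it Nap1l5 (log2 0.99) and Tgfb2 (log2 -0.99984). The lower group depended on single libraries: it held 29 genes without wild-type replicate 4, 96 without 5xFAD replicate 2 and 84 without 5xFAD-Dp16 replicate 3.

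Transcription factors that pattern the brain outside the telencephalon led the higher group. Irx2, an Iroquois homeobox factor (GRCm38 chromosome 13, 72628820 to 72634198), gave 13.4 CPM in wild-type replicate 4, 15.7 in 5xFAD replicate 2, 6.16 in 5xFAD replicate 4 and 16.5 in 5xFAD-Dp16 replicate 3, against 0 to 0.175 (median 0.0263) in the other 12. All 4 libraries were above the 12, as the rule requires, and the groups lay far apart. Foxb1, a forkhead factor of the diencephalon and brainstem, had 330 counts over the 4 libraries and 1 count over the 12, a ratio of 986 per scaled library size with a 95% counting interval of 176 to 39056. Sox14, a factor of inhibitory neurons in the thalamus and midbrain, had 90 counts in the 4 libraries and 0 in the 12, which makes it at least 89.6-fold higher, taking a floor of 3 counts summed over the 12. Such intervals and floors cover counting error only.

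Further developmental factors were among the 12 largest differences of genes without clone names. The rule for higher genes places them above the 12 libraries in all 4, so only their levels are given. Barhl1, a BarH homeobox factor, was at 2.71 to 4.71 CPM against at most 0.134, Mab21l2 at 5.74 to 10.99 against at most 0.292, and Pou4f2, a POU factor of midbrain neurons, at 0.906 to 2.42 against at most 0.134. Gata3, which specifies inhibitory neurons of the midbrain, was at 8.04 to 8.74 CPM in the 3 libraries of the 5xFAD and 5xFAD-Dp16 genotypes and at 1.58 in wild-type replicate 4, against at most 0.698. Pax7 ranged from 0.770 to 4.31 CPM, against at most 0.341. C1ql4, a secreted C1q-domain protein, had 266 counts over the 4 and 3 over the 12 (ratio 265, 95% counting interval 89.7 to 1293). Irx2, Sox14 and Gata3 belong to a list of nontelencephalic transcription factors. Of the 32 nontelencephalic transcription factors listed, 30 were tested and 13 were higher, with 0 lower. A gene that passed the filter on low counts only through the 4 libraries had to differ, so this count adds nothing to the choice of the set.

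Promoters are shown for 1 gene of each direction, because Irx2 and Neurod2 stand for a factor from outside and a factor from inside the telencephalon. The 250 bases before the start of each gene come from RefSeq (GRCm38.p6), written in the direction of transcription, chr13:72628570-72628819 (plus strand) for Irx2 and chr11:98329646-98329895 (minus strand) for Neurod2. Capitals mark CAGATG or its reverse complement CATCTG, a form of E-box that basic helix-loop-helix factors such as those of the Neurod family can bind, searched on both strands.
Irx2: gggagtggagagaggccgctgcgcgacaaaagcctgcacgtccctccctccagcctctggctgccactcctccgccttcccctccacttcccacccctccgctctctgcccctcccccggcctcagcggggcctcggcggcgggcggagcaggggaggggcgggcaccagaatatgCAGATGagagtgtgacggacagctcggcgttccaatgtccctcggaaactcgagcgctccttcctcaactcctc
Neurod2: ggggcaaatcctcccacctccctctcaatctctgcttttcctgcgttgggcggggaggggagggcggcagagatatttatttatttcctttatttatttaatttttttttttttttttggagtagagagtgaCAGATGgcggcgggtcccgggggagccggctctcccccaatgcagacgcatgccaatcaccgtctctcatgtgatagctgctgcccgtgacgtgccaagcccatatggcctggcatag
Each promoter held 1 match. In windows of 300 bases, from 250 before to 50 after the start, the motif was present in 15.9% of 20922 promoters, in 12.1% of the 12229 of tested genes, in 18.2% of the 132 matched higher genes and in 23.7% of the 38 matched lower genes. A match is a description of letters and no evidence of binding.

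The 4 libraries were not alike in which neighbouring region they carried. A list score, the mean log2 CPM over the tested members of a list minus its mean over the other 12 libraries, summarises this. For midbrain and pretectum factors the scores were 1.94 in wild-type replicate 4, 2.77 in 5xFAD replicate 2, 3.24 in 5xFAD replicate 4 and 3.03 in 5xFAD-Dp16 replicate 3, with 0.57 as the maximum elsewhere. These markers are of the kind behind the choice, and some passed the filter on low counts only through the 4 libraries. Their high scores therefore add nothing to the choice of the set. For midbrain dopamine genes, in the same order, they were 1.63, 3.86, 0.32 and 2.06, with 0.47 as the highest of the 12, so 5xFAD replicate 4 lay inside the range of the others. The dopamine list score was above all 12 in the other 3, but the dopamine transporter Slc6a3, a defining marker, was so in only 2 of them, with values given below.

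**Figure D1:**
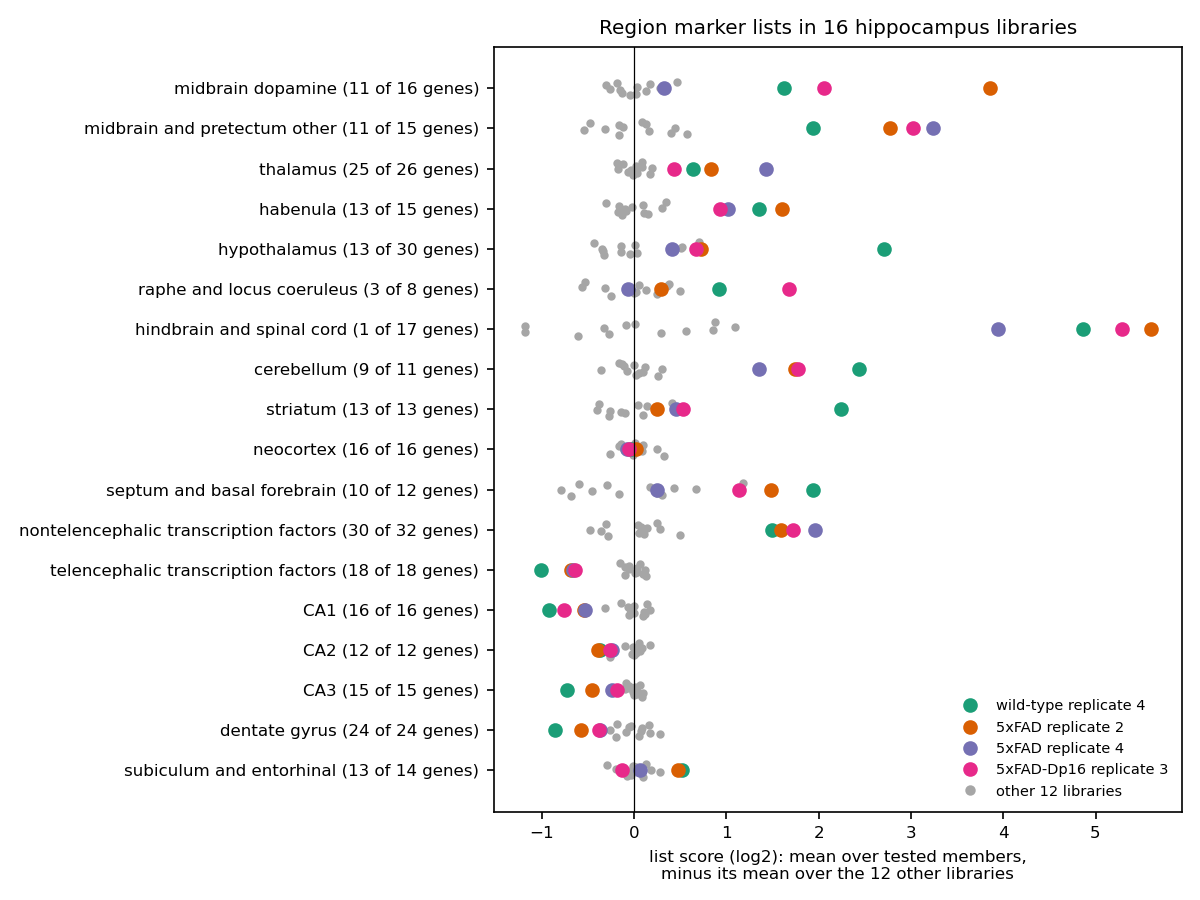
Scores of 18 region marker lists in each of the 16 libraries (horizontal axis, log2 scale), with the number of tested of listed genes. The 4 marker-high libraries are coloured and the other 12 are grey. Midbrain and pretectum factors, of the kind behind the choice of the set, lie at 1.94 to 3.24 in all 4. Hypothalamus (2.71) and striatum (2.24) are high in wild-type replicate 4.

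Several dopamine and serotonin genes were highest in 5xFAD replicate 2 or 5xFAD-Dp16 replicate 3. Slc6a3, the dopamine transporter (chromosome 13, 73536747 to 73578672), gave 0.770 CPM in wild-type replicate 4, 143 in 5xFAD replicate 2, 0.197 in 5xFAD replicate 4 and 14.8 in 5xFAD-Dp16 replicate 3, against 0 to 0.789 (median 0.182) in the 12. Only the second and the last of these stand above the 12. Th, which makes the dopamine precursor, was at 7.88, 75.0, 0.641 and 8.21 CPM in that order, against 0.611 to 1.51. The midbrain patterning factor En1 was at 17.0 and 6.79 CPM in those 2 libraries and at most 0.770 elsewhere. Tph2, the first enzyme of serotonin synthesis in raphe neurons, was at 4.35, 9.75, 1.13 and 15.8 CPM against 0.730 to 1.60, and the serotonin transporter Slc6a4 at 2.26, 5.96, 0 and 6.64 against at most 0.356. For both genes 3 libraries stood above the 12 and 5xFAD replicate 4 did not. Of 16 midbrain dopamine genes 11 were tested. Ddc, Aldh1a1 and Ret were higher by the rule. Ret, a growth factor receptor, was at 13.8, 72.7, 9.57 and 13.3 CPM against 3.602 to 9.31. Its value in 5xFAD replicate 4 was only just above the highest of the 12. Nr4a2, a factor of dopamine neurons that the hippocampus and cortex also express, was at 39.5 to 79.9 CPM against 58.8 to 105.

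Hindbrain genes separated the same 3 libraries from 5xFAD replicate 4. Hox genes pattern the hindbrain and spinal cord and are silent further forward. The 39 Hox genes of the table summed to 319 counts in wild-type replicate 4, 207 in 5xFAD replicate 2 and 278 in 5xFAD-Dp16 replicate 3, but to 1 count in 5xFAD replicate 4 and 1 to 16 counts in each of the other 12. Nearly all of these counts fell in paralogue groups 1 to 5, which are expressed in the hindbrain: 315, 206 and 257 counts, against 4, 1 and 21 in the 24 genes of groups 6 to 13. Hoxb3 (chromosome 11, 96323326 to 96347930) was at 2.81, 2.78, 0 and 1.98 CPM and 0 in all 12. Hoxb5 was at 2.67, 2.34, 0 and 2.63 CPM and at most 0.146 in the 12. The neighbouring Hox genes of a cluster overlap, and reads of overlapping genes cannot be assigned with certainty. The split of Hox genes by paralogue group was made after their values were seen.

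The glycine transporter Slc6a5, a marker of inhibitory neurons of the hindbrain and spinal cord (chromosome 7, 49910146 to 49963856), followed the Hox genes at 21.8, 17.8, 0.247 and 25.2 CPM, against 0 to 0.210. The glycine receptor gene Glra1 did not: at 6.52, 10.9, 3.40 and 8.76 CPM it was high in all 4 libraries, against at most 0.383. Of the 17 hindbrain genes listed, Glra1 alone passed the filter on low counts, so the list score of this region is the value of a single gene. The cholinergic genes Chat and Slc5a7 were at 6.16 and 14.4 CPM in wild-type replicate 4, 3.01 and 8.30 in 5xFAD replicate 2 and 2.13 and 9.73 in 5xFAD-Dp16 replicate 3. In 5xFAD replicate 4 they were at 0.0986 and 0.740, within the 0 to 0.526 and 0.248 to 1.74 of the 12.

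Several hypothalamic neuropeptides were high in wild-type replicate 4, but not all that were listed. Agrp had 18 counts there against 30 in 5xFAD-Dp16 replicate 4, and Npy 903 against 1230 in Dp16 replicate 4. Pomc had 323 counts there and 274 in wild-type replicate 3. Hcrt, the orexin precursor (chromosome 11, 100761069 to 100762931), reached 19.3 CPM there, 0, 0.197 and 0 in the other 3, and at most 0.124 in the 12. Pmch, the precursor of melanin-concentrating hormone, was at 57.4 CPM against 1.45, 0.345 and 0.203, and at most 0.503 in the 12. The vasopressin and oxytocin genes Avp and Oxt, neighbours on chromosome 2 (130580620 to 130582554 and 130576173 to 130577054), were at 63.4 and 67.9 CPM, and at most 1.41 and 0.278 in any other library. Trh was at 58.3 CPM against at most 7.12 elsewhere. Of 30 hypothalamus genes 13 passed the filter on low counts. Baiap3, a regulator of dense-core vesicles, was higher in all 4 libraries by the rule (114, 35.5, 24.6 and 30.9 CPM against 2.86 to 19.2).

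The same wild-type library also had the highest levels of several striatal genes and of granule cell genes of the cerebellum. The score of the cerebellum list was high in all 4 libraries (2.44, 1.75, 1.35 and 1.78 against at most 0.30). Of its 9 tested genes 4 were higher: Barhl1, Barhl2, Car8 and Pvalb. Barhl factors mark neurons outside the telencephalon in general, and Pvalb is also an interneuron gene. The score therefore does not single out cerebellar tissue. Adora2a, the adenosine receptor of striatal projection neurons, was at 20.0 CPM against 1.17 to 1.82 in the other 3 and 1.73 to 3.88 in the 12. The enkephalin precursor Penk was at 242 CPM against 42.6 to 51.0 and 30.5 to 47.9. Gabra6 and Cbln3, genes of cerebellar granule cells, were at 4.75 and 15.6 CPM, and at most 0.575 and 1.63 in every other library. Lhx8, a factor of basal forebrain cholinergic neurons, was at 5.34 CPM and at most 1.53 elsewhere.

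Several thalamic genes, though not all that were listed, were highest in 5xFAD replicate 4, the chosen library with 1 Hox count. Its score for the thalamus list was 1.42, against 0.63, 0.83 and 0.43 in wild-type replicate 4, 5xFAD replicate 2 and 5xFAD-Dp16 replicate 3 and 0.19 as the highest of the 12. Prkcd, a kinase strongly expressed in thalamic relay nuclei (chromosome 14, 30595354 to 30626210), was at 104 CPM there, and at 9.74, 16.9 and 22.0 in wild-type replicate 4, 5xFAD replicate 2 and 5xFAD-Dp16 replicate 3, against 17.0 to 43.6 in the 12. Only 5xFAD replicate 4 was above the 12, and the first pair lay below their lowest value. Tnnt1, a troponin gene expressed in thalamus, was at 41.8 CPM against 3.44 to 6.41 in the other 3 and at most 2.63 in the 12, Ramp3 at 31.1 against 2.94 to 4.48 and a maximum of 5.33, and the factor Shox2 at 28.2 against 1.40 to 6.18 and at most 1.13. Tfap2b, expressed in the dorsal midbrain and pretectum, was at 11.4 CPM against 0.446 to 1.63 and at most 0.742. Tcf7l2, a factor of thalamic and habenular neurons (chromosome 19, 55741820 to 55933654), was high in all 4 libraries at 18.2, 30.7, 68.0 and 31.6 CPM, against 6.34 to 13.1 (median 7.97). Some other listed genes were not highest in 5xFAD replicate 4. Cbln1 had 306 counts there and 1200 in wild-type replicate 4, Hcn4 132 and 294, and Calb2 1636 and 3041. Vamp1 had 4847 counts there and 6769 in 5xFAD-Dp16 replicate 3. Of the 26 thalamus genes listed 25 were tested, 8 were higher and 0 lower, with a positive sign in 20. The list holds markers of the kind behind the choice of the set, so this count adds nothing to it. Habenula markers were mixed: the receptor gene Gpr151 was at 0.278 to 1.23 CPM against 0.256 to 1.19, whereas Chrna3, Irx2 and Tac1 were higher by the rule.

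**Figure D2:**
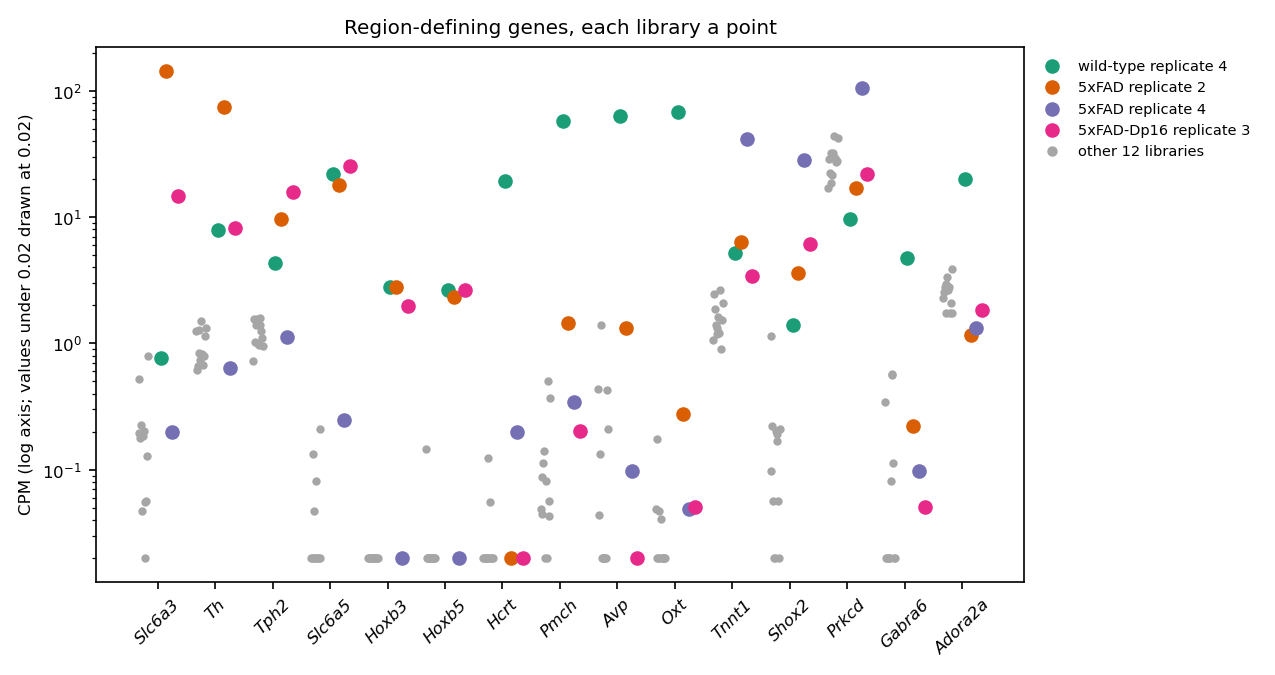
CPM of 15 region-defining genes (vertical log axis), 1 point per library. Slc6a3 reaches 143 CPM in 5xFAD replicate 2, the peptides Hcrt, Pmch, Avp and Oxt reach 19.3 to 67.9 in wild-type replicate 4, and Tnnt1, Shox2 and Prkcd peak in 5xFAD replicate 4, where Hoxb3 is at 0.

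Despite these differences, the balance of the glutamate transporters differed in all 4 libraries. Slc17a6 (chromosome 7, 51622006 to 51671119) was at 91.8, 83.3, 117 and 81.4 CPM against 12.5 to 33.8 (median 26.5) in the 12. Slc17a7 (chromosome 7, 45163949 to 45176142) was at 706, 901, 734 and 968 CPM against 1367 to 1916. On the deposited RPKM scale, which divides by gene length, Slc17a6 made up 8.59, 6.27, 10.3 and 5.73% of the sum of both in the 4 libraries and 0.496 to 1.71% in the 12. Neither gene overlapped between the groups. Slc17a6 belongs to the thalamus list, which holds markers of the kind behind the choice, so its separation adds nothing to the choice of the set. Slc1a2, the glutamate transporter of astrocytes, was at 2482 to 3390 CPM against 3473 to 5158.

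**Figure D3:**
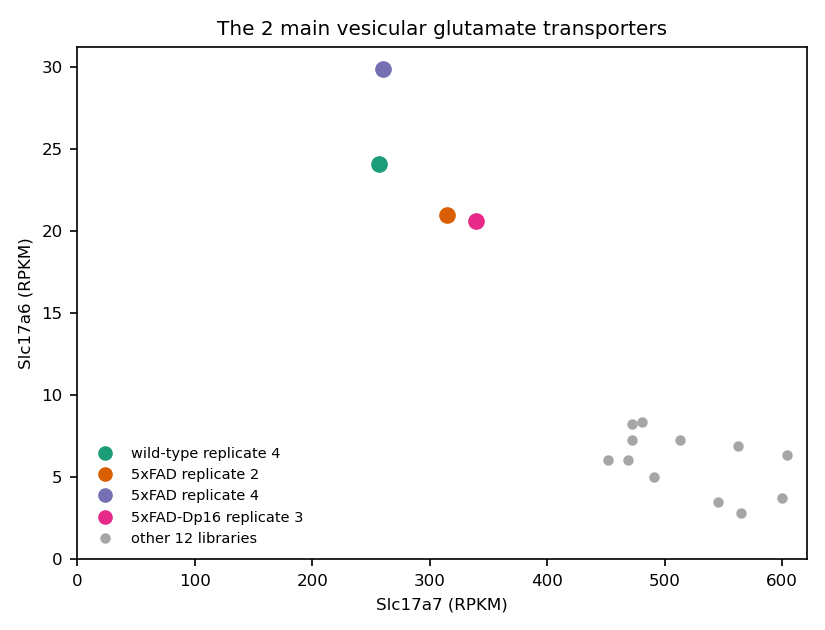
Slc17a6 against Slc17a7 (both RPKM), 1 point per library. The 4 marker-high libraries form a group at high Slc17a6 and low Slc17a7, with Slc17a6 at 20.6 to 29.9 RPKM against 2.81 to 8.35 in the other 12. Slc17a6 is a thalamus marker, of the kind behind the choice of the set.

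Telencephalic transcription factors and most markers of the hippocampal fields lay on the low side, but other telencephalic lists did not. Striatum genes had a median log2 of 1.09 (11 of 13 positive) and septum and basal forebrain genes 0.42 (8 of 10). Neocortex genes were split, with 7 positive and 9 negative (median log2 -0.10). All 18 telencephalic transcription factors had a negative fitted difference (median log2 -0.72, against 0.03 over all genes), and their scores were -1.01, -0.69, -0.66 and -0.64, against -0.15 to 0.13 in the 12. Neurod2, a helix-loop-helix factor of telencephalic excitatory neurons (chromosome 11, 98325415 to 98329648, promoter printed above), gave 55.0 CPM in wild-type replicate 4, 94.0 in 5xFAD replicate 2, 103 in 5xFAD replicate 4 and 102 in 5xFAD-Dp16 replicate 3, against 139 to 248 (median 186). Bcl11b was at 80.8 to 95.2 CPM against 143 to 239.

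Markers of the hippocampal fields were low to unequal degrees. CA1 scores were -0.92, -0.55, -0.53 and -0.76, CA3 scores -0.73, -0.46, -0.24 and -0.19, and dentate gyrus scores -0.86, -0.57, -0.37 and -0.38, all below the lowest of the 12 (-0.32, -0.09 and -0.27). CA2 scores, at -0.40 to -0.24, overlapped with the lowest of the 12 (-0.26). Of 16 CA1 genes 5 were lower, among them Fibcd1 (44.7 to 91.8 CPM against 109 to 203), the factor Pou3f1 (25.0 to 43.0 against 60.3 to 102), the mineralocorticoid receptor Nr3c2 (59.3 to 101 against 146 to 239) and Gpr161. Of 24 dentate genes Dsp, Lct and Il16 were lower, and of 15 CA3 genes 0.

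Lct and Dsp were lowest in the 2 female libraries of the set. Lct, the lactase gene, a granule cell marker in mice (chromosome 1, 128284756 to 128328318), gave 2.99 CPM in wild-type replicate 4, 8.19 in 5xFAD replicate 2, 26.0 in 5xFAD replicate 4 and 24.2 in 5xFAD-Dp16 replicate 3, against 26.8 to 66.4 (median 39.6). Dsp, a desmosome gene (chromosome 13, 38151294 to 38198577), was at 3.62, 10.6, 26.9 and 26.7 CPM against 28.6 to 67.4. The last 2 libraries lay just under the lowest of the 12. Prox1, the granule cell factor, was at 34.0, 65.7, 63.1 and 69.5 CPM against 70.5 to 133, a smaller difference that the last 3 libraries shared. Among the other 12 libraries Lct was at 26.8 to 47.6 CPM in the 4 females and 33.4 to 66.4 in the 8 males, and Dsp at 31.5 to 67.4 and 28.6 to 67.3, so the sexes overlapped there. The same 2 libraries had the low levels of the choroid plexus marker Ttr given further on, and its part in the split was not tested.

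**Figure D4:**
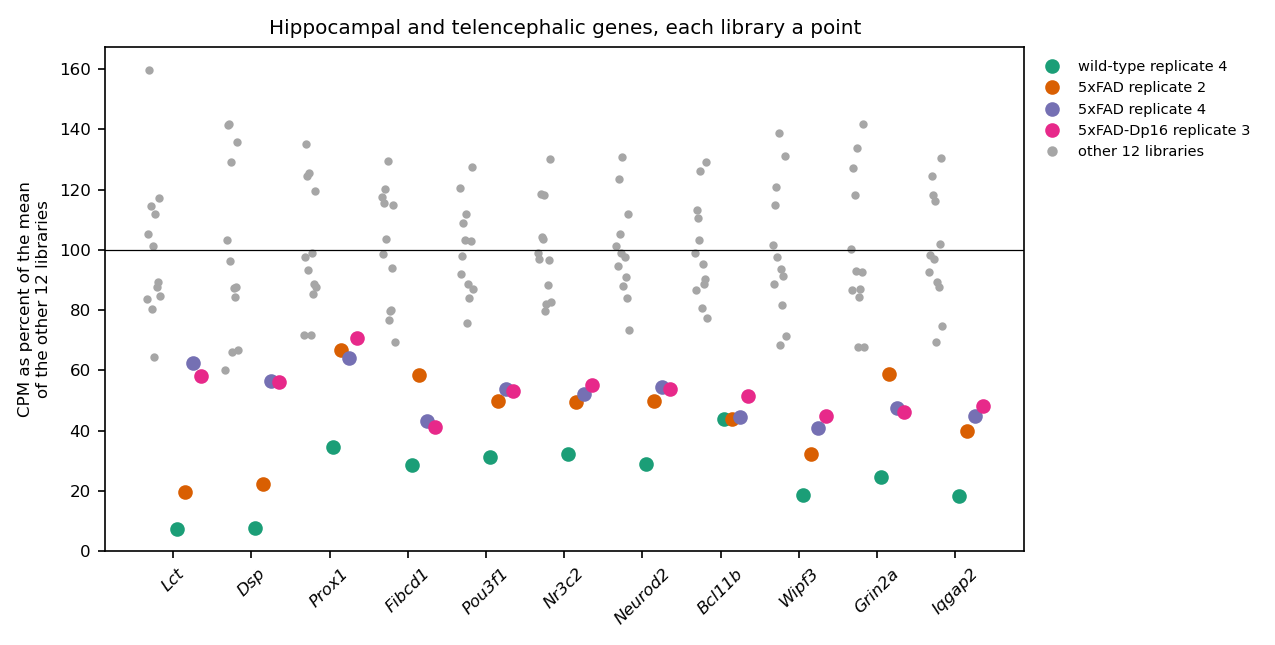
CPM of 11 hippocampal and telencephalic genes as a percent of their mean over the other 12 libraries (line at 100), 1 point per library. All 4 marker-high libraries lie below the 12 for each gene. Every gene but Prox1 was called lower, and that rule requires no overlap, so this was fixed by the choice of genes. Wipf3, Iqgap2 and Grin2a belong to none of the region lists. Wild-type replicate 4 is the lowest for 10 of the 11, Bcl11b being the exception.

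Among the lower genes without clone names Nhlh1 (log2 -2.06) and Umodl1 (log2 -1.90) had the largest fitted differences, at under 2 CPM in every library. Among better expressed genes Wipf3, an actin-regulating protein, was at 117, 201, 255 and 278 CPM against 425 to 864 (log2 -1.48). Iqgap2, a scaffold protein, was at 18.7 to 48.9 CPM against 70.5 to 133, and the secreted matrix protein Thbs4 at 3.58 to 16.6 against 22.1 to 54.0. At a 4-fold limit 41 genes were higher and 1 lower.

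Synaptic genes of forebrain excitatory neurons lay with the hippocampal markers. Camk2a, the kinase subunit required for long-term potentiation, was at 2304, 2670, 2427 and 3055 CPM against 4220 to 6435 (log2 -0.95), and the scores of its list of 20 genes were -0.75 to -0.55 against -0.18 to 0.19. Arc, an immediate early gene of synaptic plasticity, was lower by the rule (69.4 to 102 CPM against 114 to 323). Among glutamate receptors Grin2a, an NMDA receptor subunit, was lower (67.5 to 161 CPM against 185 to 387), and Gria1 was at 671 to 824 against 1034 to 1489. Of the 17 glutamate receptor genes tested 12 had a negative and 5 a positive sign. In the GABA and glycine receptor list only Glra1 was called, with 12 genes of positive and 7 of negative sign. The scores of that list lay higher in the 4 libraries, at 0.39 to 1.06 against -0.21 to 0.29.

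Axonal genes lay on the high side, whereas the lists of interneuron genes and of fast potassium and sodium channels did not as a whole. Of 28 interneuron genes 11 had a positive and 17 a negative sign (median log2 -0.12), and of 29 channel genes 11 and 18 (median log2 -0.24), with scores that overlapped between the groups in both lists. The called members of these lists, 3 and 2 genes, were all higher. Pvalb, the calcium buffer parvalbumin, was at 69.2, 77.3, 86.7 and 79.6 CPM against 25.6 to 40.3, while Gad1, the enzyme that makes GABA, overlapped between the groups (242 to 303 against 246 to 328). Scn4b, a sodium channel subunit of fast-firing neurons, was at 55.3 to 85.8 CPM against 16.6 to 28.8. The release genes Syt2 (72.1 to 132 against 27.2 to 56.2) and Vamp1 (224 to 343 against 83.3 to 129), which serve fast synapses of the brainstem and thalamus, and gamma-synuclein Sncg (12.6 to 33.4 against 3.20 to 7.90) were higher in all 4. Nefl overlapped between the groups. Axonal list scores were 0.74, 0.92, 0.39 and 0.85 against -0.15 to 0.18.

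Glial genes differed as well. Klk6, a protease of oligodendrocytes that is most abundant in the hindbrain and spinal cord, was at 16.8, 19.3, 9.57 and 17.9 CPM against 0.496 to 2.18 (log2 3.32), whereas the myelin gene Mbp was at 3713, 4308, 4028 and 5271 CPM against 2489 to 3529 (log2 0.46). Of the 25 oligodendrocyte genes 22 had a positive sign and Klk6 and Hapln2 were higher by the rule. Among 20 regional astrocyte genes 5 were higher: Agt, the angiotensin precursor made by astrocytes outside the telencephalon (164, 138, 84.3 and 75.1 CPM against 17.8 to 39.1), Sparc (683 to 1101 against 276 to 393), the GABA transporter Slc6a11 (359.8 to 488 against 167 to 228), Itih3 and Unc13c. Gfap overlapped between the groups.

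Scores of some other tissues overlapped between the groups. Choroid plexus scores were -2.85, -2.54, 0.66 and 0.52, inside the -3.08 to 2.1 of the 12. Its marker Ttr was at 13.1 and 47.0 CPM in wild-type replicate 4 and 5xFAD replicate 2 and at 2584 and 2236 in the other 2, against 34.0 to 5983, so the first of these lay below all 12. Microglia and mitochondrially encoded scores also overlapped, as did neocortex scores (-0.08 to 0.02 against -0.27 to 0.32). Ribosomal protein scores did not overlap: all 40 had a positive sign (median log2 0.42), with scores of 0.40, 0.23, 0.82 and 0.38 against -0.20 to 0.17. Ribosomal protein genes have many near-identical pseudogenes, so their counts are uncertain.

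Differences of the same kind appeared within each genotype that holds a chosen library. For each genotype the chosen libraries were set against the other libraries of that genotype, so that no library serves more than 1 comparison. Across the 16684 tested genes Pearson's r was 0.54 between wild-type and 5xFAD, 0.49 between wild-type and 5xFAD-Dp16 and 0.48 between 5xFAD and 5xFAD-Dp16 (Spearman's rho 0.58, 0.55 and 0.52). Over the 16162 genes outside all lists r was 0.51, 0.46 and 0.43. These correlations are over genes, which are not independent replicates, and all 3 groups were chosen on the same markers.

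The genotype comparisons were then fitted with the library set as a term and without it. They share the wild-type libraries. Against wild-type, 38 genes passed in Dp16 (0.228%; edgeR quasi-likelihood test, Benjamini-Hochberg adjusted p below 0.05), 215 in 5xFAD (1.29%) and 236 in 5xFAD-Dp16 (1.41%) with the term, and 14, 162 and 169 without it. Every gene that passed without the term also passed with it. The median standard error (SE) of the log2 fold changes was 0.143, 0.144 and 0.151 with the term and 0.177, 0.177 and 0.190 without it. When the 4 libraries were left out altogether, 39, 180 and 231 genes passed. Without wild-type replicate 1 the counts with the term were 19 in Dp16 and 142 in 5xFAD-Dp16, and without 5xFAD replicate 1 the count in 5xFAD was 133. None of the 229 genes that describe the set passed in any of the 3 comparisons, with or without the term. They were chosen for a split between libraries of the same genotype, which widens their spread without the term. At the shares above few would pass in any case, so nothing is read from this.

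The genes of the set were chosen for differing in libraries that fall unequally on the genotypes, so their genotype medians without the term, and their return towards 0 with it, follow from that choice and are given as a description. The median log2 fold change of the 174 higher genes was -0.51 in Dp16, which has no marker-high library, 0.38 in 5xFAD, which has 2, and 0.23 in 5xFAD-Dp16, which has 1 as wild-type does. With the term these medians were 0.02, -0.07 and 0.05. The 55 lower genes had medians of 0.26, -0.26 and -0.10 without the term and 0.07, 0.05 and 0.01 with it. Medians over all tested genes lay between -0.01 and 0.02 in these fits. The midbrain and pretectum list, which holds markers of the kind behind the choice, had medians, in the order Dp16, 5xFAD, 5xFAD-Dp16, of -1.53, 1.69 and 0.69 without the term and 0.03, 0.21 and 0.27 with it. The midbrain dopamine list stayed further from 0, at -0.70, 1.24 and 1.32 without the term and 0.17, 0.46 and 0.77 with it. Septum and basal forebrain genes had a median of 0.70 in 5xFAD-Dp16 without the term and 0.69 with it.

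**Figure D5:**
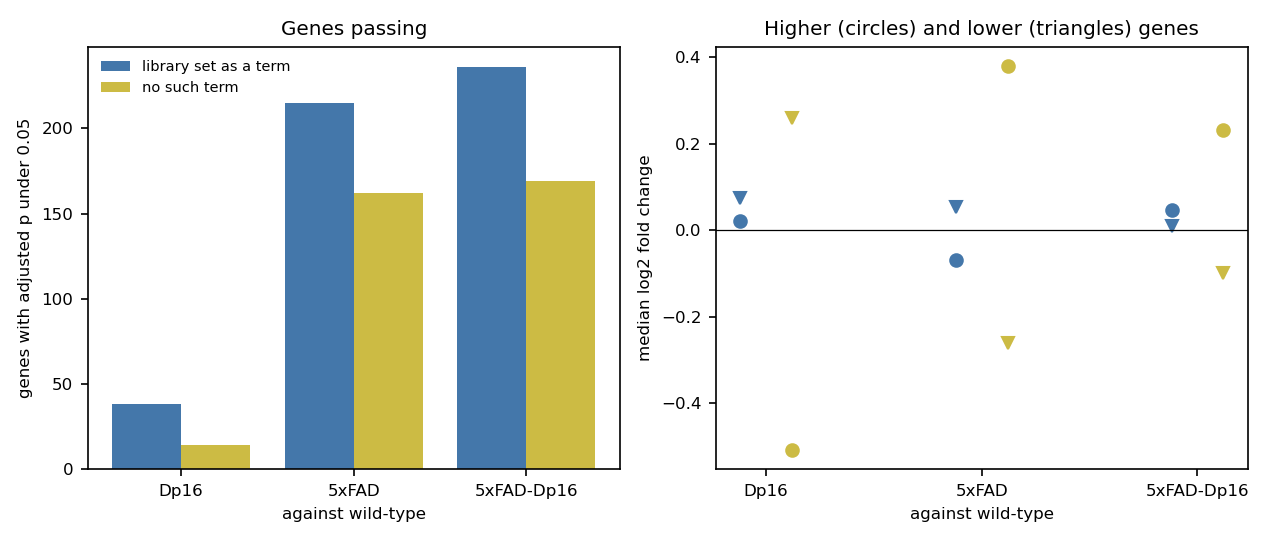
Left, number of genes that passed in each genotype against wild-type with the library set as a term (blue) and without it (yellow). Right, median log2 fold change of the 174 higher and 55 lower genes of the set in the same fits; the blue symbols lie between -0.07 and 0.07 and the yellow ones between -0.51 and 0.38.

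With the term Dp16 gained 24 genes, 5xFAD 53 and 5xFAD-Dp16 67, of which 22, 2 and 15 lay on chromosome 16, which carries the duplicated segment. Without the term 13 of the 14, 5 of the 162 and 28 of the 169 passing genes already lay there. The share of all tested genes on chromosome 16 was not computed, so nothing is read from these counts. Cct8, a chaperonin subunit, was at 183 ± 23.0 CPM in wild-type and 269.7 ± 15.7 in Dp16 (SD, n = 4 each) and rose by log2 0.62 ± 0.0733 SE (edgeR adjusted p = 0.000639, and 0.0685 without the term). Jam2, a junction protein, rose by 0.73 ± 0.0865 (edgeR adjusted p = 0.000639, and 0.163 without), and Hmgn1, Ets2 and Tiam1 were also gained. In 5xFAD, Grn, the progranulin gene, went from 57.7 ± 6.38 to 101 ± 28.7 CPM and rose by log2 0.89 ± 0.136 SE (edgeR adjusted p = 0.00117, and 0.0613 without the term). Csf1r, the growth factor receptor of microglia, rose by 0.82 ± 0.136 (edgeR adjusted p = 0.00241, and 0.106 without), and Gpnmb, Tgfbr2 and P2ry13 were also gained. In 5xFAD-Dp16, Sod1, a superoxide dismutase gene on chromosome 16, went from 247 ± 41.7 to 375 ± 57.3 CPM and rose by log2 0.59 ± 0.0888 SE (edgeR adjusted p = 0.00106, and 0.0752 without the term), with Tent5c, Man2b1, Ighm and Trf also gained. Tiam1 did not pass without wild-type replicate 1 (adjusted p = 0.0563), Gpnmb and P2ry13 without 5xFAD replicate 1 (0.0736 and 0.0737), Ighm without wild-type replicate 3 (0.0533), and Trf without wild-type replicate 1 or 3 (0.0667 and 0.0518) or the sex term (0.0686). Dp16 has no library in the set, so the set term was estimated from the other 3 genotypes.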

How the data were processed

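Polyadenylated RNA of 16 hippocampus samples was sequenced as paired ends from strand-specific libraries, per the labels' protocols. The submitters' processing notes name bcl2fastq, FastQC 0.11.5, HISAT2 2.1.0, SAMtools 1.5, HTSeq 0.6.1 and GRCm38. Which strand setting the counting used was not given in the sources used here. The authors deposited raw read counts for 55385 genes and RPKM values, which are scaled by library size and gene length. RPKM was used only to set Slc17a6 beside Slc17a7.

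The counts were fitted with edgeR 4.0.16 (R 4.3.3): default low-count filter, TMM scaling, robust quasi-likelihood with terms for genotype, sex and library set, over all 16 libraries. Benjamini-Hochberg adjustment ran over all 16684 tested genes. The library set has no test. CPM is TMM-scaled. List scores and within-genotype differences used the log2 CPM of edgeR with a prior count of 2. Steps were tested on simulated data. DESeq2 1.42.0 and other settings were alternatives.

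The 4 libraries and the 35 gene lists were chosen with earlier results of these data known. Named genes are up to 12 in each direction with the largest fitted difference among called genes without clone names, any member of the region and transcription factor lists, in other lists the 3 most abundant and the called members, and per genotype comparison 5 genes with the smallest p that passed in only 1 of the fits. Kcng4, Nap1l5, Egr3 and Tgfb2 were named after their values were seen, for their place beside the limit. Coordinates come from GENCODE vM21 (GRCm38), matched by gene identifier. Some results that the rule would name are not reported here.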

Additional observations from a re-analysis of the deposited data

Results flagged for a closer look

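In groups of 4 libraries of 1 genotype, 13 of 140 combinations of list and genotype had 1 library far from the other 3, with a gap to its nearest neighbour above Dixon's 95% critical value as a share of the whole range. Chance flags about 1 in 20 such groups. In 11 of the 13 that library was one of the 4 chosen for midbrain and thalamus markers, so the choice had already fixed much of this.

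Wild-type replicate 4 stood apart in 7 lists: midbrain dopamine (score 1.63), hypothalamus (2.71), hindbrain and spinal cord (4.86, from Glra1 alone), cerebellum (2.44), striatum (2.24), CA1 (-0.92) and CA3 (-0.73), and also in GABA-A and glycine receptors (1.06). 5xFAD replicate 2 stood apart in midbrain dopamine (3.86), 5xFAD-Dp16 replicate 3 in cerebellum (1.78) and 5xFAD replicate 4 in ribosomal protein genes (0.82). Outside the set, Dp16 replicate 4 stood apart in habenula (0.30) and in GABA-A and glycine receptors (0.29). Its values were below those of every marker-high library in both lists.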

How the results depend on the processing

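Fitted differences of the 24 genes named for the size of their difference and the medians of the 18 lists whose scores do not overlap kept their sign under every alternative run that gives them. These genes and lists were picked for their separation in the same libraries, so a kept sign was largely built in and nothing is read from it. At a 1.5-fold limit 388 genes were higher and 399 lower, and at 4-fold 41 and 1. With the replicate number as a block 159 were higher and 20 lower, and 262, 284 and 45 genes passed in 5xFAD, 5xFAD-Dp16 and Dp16 against wild-type. The numbers do not pair the libraries: same-numbered libraries correlated at -0.354 to 0.354 in their deviations from the genotype mean, 9 of 24 pairs above 0.1, and 3 of 16 libraries correlated best with their own number. Leaving out each library in turn gave 179 to 250 higher genes, 29 to 96 lower, and 19 to 43 passing in Dp16, 133 to 284 in 5xFAD and 142 to 275 in 5xFAD-Dp16. The lowest genotype counts came without wild-type replicate 1 (19 and 142) and without 5xFAD replicate 1 (133). DESeq2 called 61, 371 and 364 genes in Dp16, 5xFAD and 5xFAD-Dp16. Dropping the filter on low counts, 196 (91 higher and 105 lower), 494 (376 and 118) and 504 (436 and 68) passed; the cause was not tested. Without the library set term Dp16 had 14. With DESeq2's size factors in edgeR 157 genes were higher and 65 lower. Low counts limit the Hox genes, which are described from counts alone. The high levels of Hcrt, Pmch, Avp, Oxt and Trh rest on wild-type replicate 4 alone, where Oxt had 1500 counts and Pmch 1267. No fitted difference is given for these neuropeptide genes.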
